A study of Mus musculus with 16 samples.

Results

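Calcium handling genes of skeletal muscle were followed in mice that carry a human SOD1 transgene with the G93A change, a model of amyotrophic lateral sclerosis, and in non-transgenic (NTg) controls. The genes were the calcium pumps Atp2a1 and Atp2a2, the calsequestrins Casq1 and Casq2, the channel genes Ryr1 and Cacna2d1, and the calcium binding proteins Pvalb and S100a1. Each probe set (the group of short probes that measures a transcript) whose platform annotation gives 1 of these symbols and no other was taken. All 8 genes were found, with 13 of the 7729 probe sets of the table, and 11 of the 13 had a mean log2 signal above 6.75, the 40th percentile, and were tested. The dim probe sets were 1427251_at of Atp2a2 and 1425861_x_at of Cacna2d1.

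RNA of the whole muscle was measured on 16 Affymetrix arrays in 4 groups of 4: gastrocnemius of SOD1-G93A mice, gastrocnemius of NTg mice, triceps of SOD1-G93A mice and triceps of NTg mice. All mice were C57BL/6 females aged 7 weeks, an age the series calls presymptomatic, and both muscles came from the same 4 mice of each genotype. No source used here gives the promoter of the transgene or its copy number, and the human transcript was not analysed here. Values are log2 signals, so a difference of 1 is a doubling, and a probe set was called where limma's adjusted p (Benjamini-Hochberg over 4637 probe sets) was under 0.05.

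A muscle fibre contracts when voltage sensors in its surface membrane open the ryanodine receptor, the release channel of the sarcoplasmic reticulum, and it relaxes when SERCA pumps return the calcium to the reticulum. Calsequestrin holds calcium in the reticulum, and parvalbumin binds it in the cytosol of fast fibres. Fast fibres mainly use SERCA1, made from Atp2a1, and calsequestrin 1. Slow fibres use SERCA2, made from Atp2a2, and contain calsequestrin 2, which is also the cardiac form.

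The arrays had the genes of muscle fibres at high signal in all 4 groups, with Ckm (muscle creatine kinase) at a mean of 14.49 in SOD1-G93A gastrocnemius, 14.23 in NTg gastrocnemius, 13.90 in SOD1-G93A triceps and 13.62 in NTg triceps. Ckm was low on 3 triceps arrays, replicate 2 of SOD1-G93A (12.76) and replicates 1 and 2 of NTg (12.84 and 13.02), and results that rest on them are also given without them. Array medians lay between 7.10 and 7.26. Probe sets of fast fibre, slow fibre and other cell types are given beside the results they move with. In whole muscle, fewer fibres of a type and less RNA per fibre cannot be told apart.

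Promoter sequence from RefSeq (assembly GRCm38.p6) was matched for 7 of the 8 genes, all but Atp2a2, which also differed between the muscles. Those of Casq2, which differed between the muscles, and of Casq1, Atp2a1 and Pvalb, which followed one another across the arrays, are printed. Each runs from 250 bases before to 50 bases after a RefSeq start. For Casq2, Casq1 and Pvalb that start is the end of the gene's annotated span, and for Atp2a1 it lies 30 bases inside it. Capitals mark an E-box (CANNTG, the site of MyoD family factors) or a MEF2 motif, searched on both strands, and the marked motifs do not overlap. Casq2 lies at chr3:102086165-102086464 on the plus strand, Casq1 at chr1:172219846-172220145 on the minus strand, Atp2a1 at chr7:126463024-126463323 on the minus strand and Pvalb at chr15:78206351-78206650 on the minus strand.
Casq2: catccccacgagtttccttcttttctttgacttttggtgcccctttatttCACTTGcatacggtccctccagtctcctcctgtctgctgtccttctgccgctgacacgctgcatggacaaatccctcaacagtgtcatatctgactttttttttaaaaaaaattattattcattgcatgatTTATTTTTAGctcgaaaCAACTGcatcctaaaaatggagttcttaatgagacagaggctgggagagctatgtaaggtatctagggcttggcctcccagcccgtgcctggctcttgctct
Casq1: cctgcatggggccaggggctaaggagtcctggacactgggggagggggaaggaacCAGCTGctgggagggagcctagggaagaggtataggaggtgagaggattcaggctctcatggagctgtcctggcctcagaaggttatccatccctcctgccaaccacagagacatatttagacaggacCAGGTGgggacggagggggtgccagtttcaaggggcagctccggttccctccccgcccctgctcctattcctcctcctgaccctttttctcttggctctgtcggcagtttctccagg
Atp2a1: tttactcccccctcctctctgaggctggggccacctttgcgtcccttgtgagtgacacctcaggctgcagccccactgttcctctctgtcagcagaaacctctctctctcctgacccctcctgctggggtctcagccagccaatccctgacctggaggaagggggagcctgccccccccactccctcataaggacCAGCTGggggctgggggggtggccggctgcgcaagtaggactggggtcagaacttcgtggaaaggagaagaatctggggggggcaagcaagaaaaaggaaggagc
Pvalb: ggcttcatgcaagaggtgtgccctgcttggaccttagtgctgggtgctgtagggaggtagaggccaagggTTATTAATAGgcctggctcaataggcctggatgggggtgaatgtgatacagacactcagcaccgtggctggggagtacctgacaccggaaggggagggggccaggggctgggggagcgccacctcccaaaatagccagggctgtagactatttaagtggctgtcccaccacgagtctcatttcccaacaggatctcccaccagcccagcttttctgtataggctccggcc
The Casq2 window holds 2 E-boxes, at -200 and -52 from the start, and a MEF2 motif at -69. The Casq1 window holds 2 E-boxes, at -195 and -67, and that of Atp2a1 1 E-box at -55. Pvalb has no E-box in its window and has a MEF2 motif at -180. The windows of S100a1, Cacna2d1 and Ryr1, which are not printed, hold neither motif. Over 27025 promoters of the same length, 72.1% hold an E-box and 3.26% a MEF2 motif, so an E-box is common in any promoter. These matches describe the letters and were not tested as binding sites.

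The first comparison set gastrocnemius against triceps, averaged over the genotypes and within each. Of the calcium handling genes, Atp2a2 and Casq2 were called higher in gastrocnemius and none was called lower. Atp2a2, the slow-type SERCA pump, was 16.2-fold higher (95% interval 10.5 to 25.1), and Casq2, the calsequestrin of slow and cardiac muscle, was 2.09-fold higher (1.61 to 2.71). Atp2a1, Pvalb and Casq1 had positive differences that did not pass the test. In number, 4 of the 11 tested probe sets of these genes were called, all higher, against 171 of all 4637 (3.69%), of which 98 were higher (2.11%) and 73 lower (1.57%). Of the 4, Atp2a2 probe sets 1452363_a_at and 1427250_at averaged 6.37 and 6.41 over the triceps arrays, under the filter level of 6.75, and were tested only through their gastrocnemius signal, so the count is a description. With the mouse as a random block 331 probe sets were called in all, and again 4 of these genes' probe sets.

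For Atp2a2 (probe set 1416551_at), the 4 SOD1-G93A gastrocnemius arrays read 10.45, 11.33, 11.41 and 11.17, and the 4 NTg gastrocnemius arrays 11.67, 11.32, 11.37 and 11.12. The SOD1-G93A triceps arrays read 6.71, 6.61, 7.86 and 9.37, and the NTg triceps arrays 6.89, 6.53, 7.18 and 6.57. Every gastrocnemius array was above every triceps array, and the widest spread within a group was in SOD1-G93A triceps, where replicate 4 was highest. The group means fell in the order NTg gastrocnemius (11.37 ± 0.23, SD, n = 4), SOD1-G93A gastrocnemius (11.09 ± 0.44), SOD1-G93A triceps (7.64 ± 1.29) and NTg triceps (6.79 ± 0.30), and within a muscle the genotypes overlapped. The difference of gastrocnemius minus triceps was 4.02 (SE 0.30, limma adjusted p 1.05e-07). It was above 0 in 8 of 8 mice, against 5.93% of all tested probe sets with that pattern.

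The other Atp2a2 probe sets gave a smaller difference or none. Probe set 1452363_a_at gave 3.62 (SE 0.31, limma adjusted p 7.31e-07), with no overlap between the 8 arrays of each muscle, and 1427250_at gave 0.73 (SE 0.15, adjusted p 0.00834). Both passed the filter only through gastrocnemius and add no support to the first probe set. The dim 1427251_at, fitted with no filter, gave 0.043 (SE 0.52, adjusted p 0.974). Signals in triceps were low, at a mean of 6.79 in NTg for 1416551_at against a filter level of 6.75, so the fold rests on a dim signal on that side. An 8 against 8 separation with gastrocnemius higher was found in 1.25% of all tested probe sets.

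Within SOD1-G93A mice Atp2a2 (1416551_at) differed by 3.46 between the muscles (SE 0.42, limma adjusted p 1.97e-04), and 3 probe sets of the calcium handling genes were called, against 48 of all (1.04%), of which 38 were higher (0.819%). Within NTg mice it differed by 4.58 (SE 0.42, adjusted p 3.11e-06), and 4 of the probe sets were called, against 57 of all (1.23%), of which 53 were higher (1.14%). Both counts include Atp2a2 probe sets that passed the filter only through gastrocnemius, so they are descriptions. The difference between the 3.46 and the 4.58 was -1.12 (SE 0.60, unadjusted p 0.0761, limma adjusted p 0.999) and was not called. In single mice, the muscle difference was 3.74, 4.73, 3.56 and 1.81 in SOD1-G93A mice 1 to 4, and 4.78, 4.80, 4.20 and 4.55 in NTg mice 1 to 4. SOD1-G93A mouse 4 had the smallest difference of the 8.

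Casq2 read 8.34, 8.56, 8.76 and 8.31 on the SOD1-G93A gastrocnemius arrays and 8.44, 8.26, 8.14 and 8.53 on the NTg gastrocnemius arrays. Triceps arrays read 7.38, 6.62, 8.21 and 7.47 in SOD1-G93A mice and 7.33, 6.86, 7.35 and 7.63 in NTg mice. Within each genotype the muscles did not overlap, while over all arrays SOD1-G93A triceps replicate 3 reached the lower gastrocnemius values. Averaged over the genotypes the difference was 1.06 (SE 0.18, limma adjusted p 0.00138), and it was above 0 in 8 of 8 mice. It was 0.83 (adjusted p 0.00306) without the 3 triceps arrays with low Ckm. Within genotypes the calls lay close to the threshold, at 1.07 (SE 0.25, adjusted p 0.0492) in SOD1-G93A mice and 1.05 (SE 0.25, adjusted p 0.0481) in NTg mice. Without the 3 arrays these became 0.81 (adjusted p 0.0636) and 0.85 (adjusted p 0.0907). Within a genotype, groups without overlap and gastrocnemius higher were found for 4.27% of all tested probe sets in SOD1-G93A mice and 3.86% in NTg mice.

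**Figure D1:**
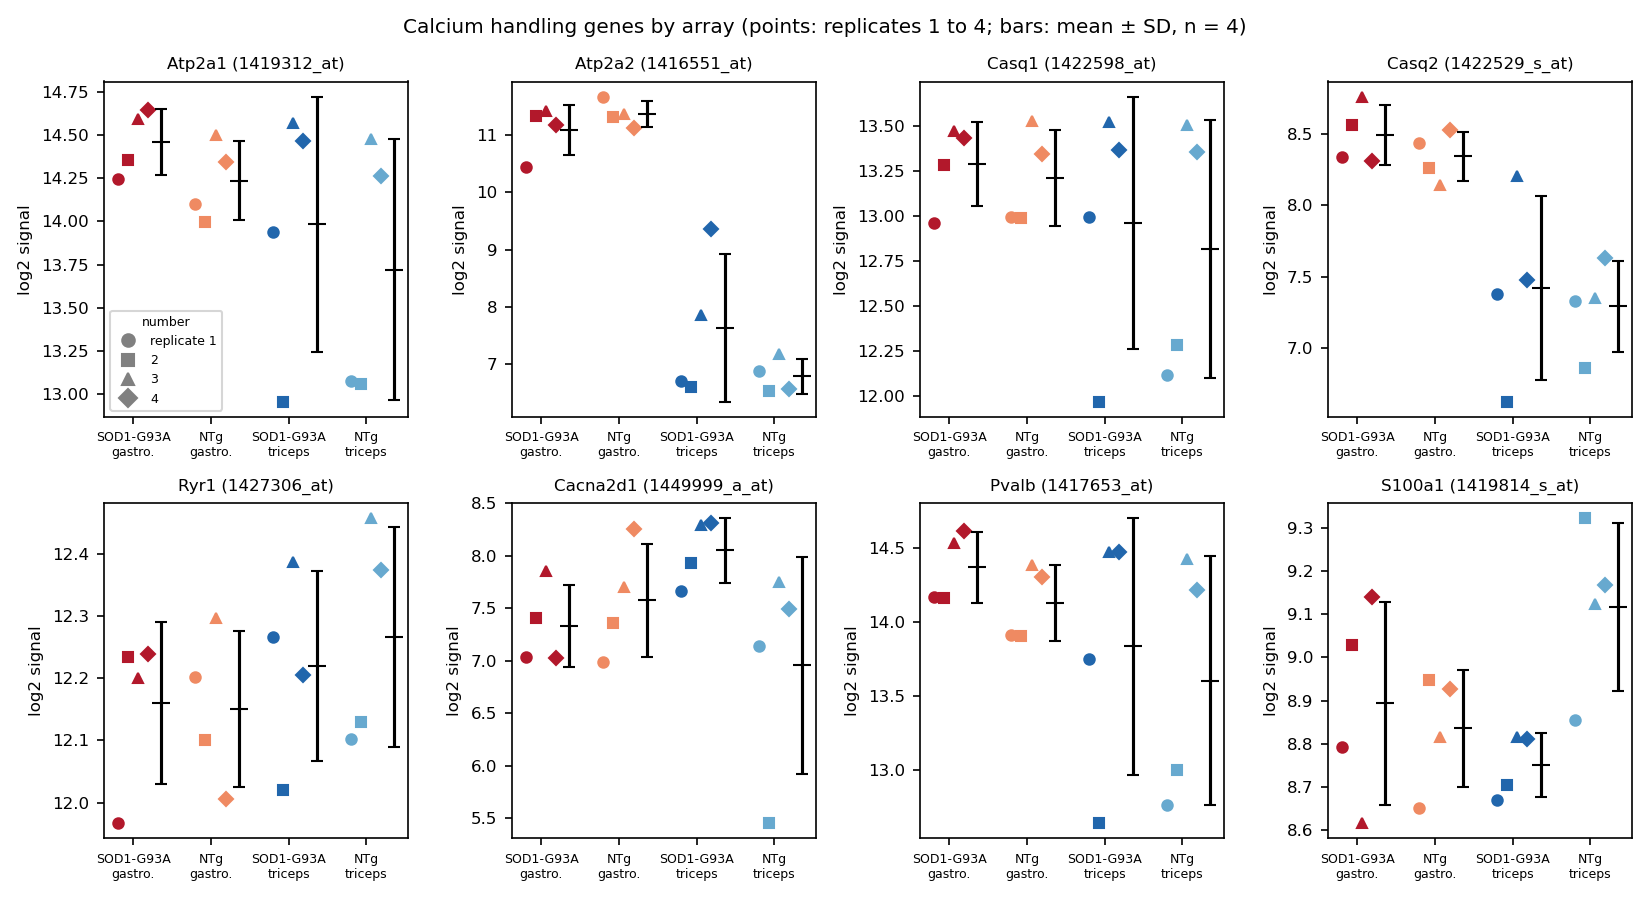
Log2 signal of the brightest probe set of each of the 8 genes on the 16 arrays, by group, with the mean ± SD of 4 arrays in black. Atp2a2 is separated completely by muscle, Casq2 by muscle within each genotype, and Atp2a1, Casq1 and Pvalb have 3 low triceps arrays.

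Slow fibre genes moved with Atp2a2. Of 9 slow fibre markers 8 were in the table. All 8 were called higher in gastrocnemius, against 2.11% of all tested probe sets, with a median difference of 5.15. Of the 8, 6 averaged under the filter level in triceps and were tested through their gastrocnemius signal, so their count is also a description. Their summed level (log2 of the sum of signals) ranged over 13.48 to 14.50 in SOD1-G93A gastrocnemius, 14.03 to 14.68 in NTg gastrocnemius, 8.69 to 11.91 in SOD1-G93A triceps and 7.98 to 9.77 in NTg triceps. SOD1-G93A triceps replicate 4, the highest triceps array for Atp2a2, was also the highest for the slow markers, at 11.91. Myh7, the slow myosin heavy chain, averaged 11.05 in SOD1-G93A gastrocnemius, 11.11 in NTg gastrocnemius, 5.18 in SOD1-G93A triceps and 3.16 in NTg triceps. The part of the slow fibres in the Atp2a2 and Casq2 values was not tested. Of 7 Schwann cell markers 2 were in the table, Mbp and Pmp22. Both were called higher in gastrocnemius, against 2.11% of all tested probe sets, with a median difference of 1.80. Mbp averaged under the filter level in triceps and was tested through its gastrocnemius signal, so this count is also a description.

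Across the 16 arrays the probe sets most like Atp2a2 were Myl3 (slow myosin light chain, Pearson r 0.995), Tnnc1 (slow troponin C, 0.992) and Tpm3 (slow tropomyosin, 0.986). These values share the arrays and the split by muscle, and they are given as a description. Within the muscles, Atp2a2 correlated with the mean level of the slow markers at 0.94 over the 8 gastrocnemius arrays and at 0.95 over the 8 triceps arrays. Casq2 did so at 0.28 over gastrocnemius arrays and 0.52 over triceps arrays, while with the fast markers it correlated at 0.021 over gastrocnemius arrays and 0.82 over triceps arrays, which include the 3 with low Ckm. The probe sets most like Casq2 over the 16 arrays were Ldhb (heart-type lactate dehydrogenase, 0.957), Fhl1 (a LIM domain protein of muscle, 0.953) and Lmcd1 (0.936), and over the 13 arrays without those 3 the values were 0.909 for Ldhb, 0.893 for Fhl1 and 0.926 for Lmcd1.

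**Figure D2:**
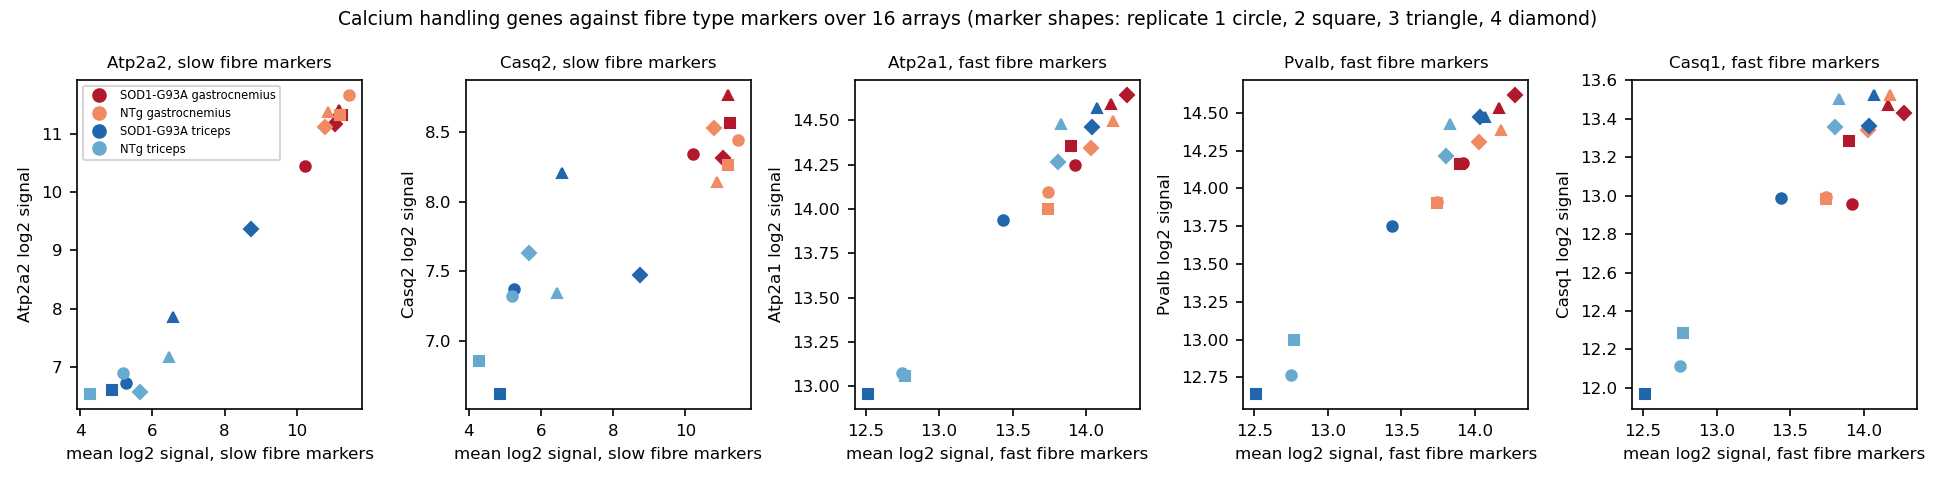
Log2 signal of 5 calcium handling genes against the mean log2 signal of the slow or fast fibre markers on the same 16 arrays. Atp2a2 lies along a line with the slow markers in both muscles, and Atp2a1, Pvalb and Casq1 lie along the fast markers. The Casq2 points are separated by muscle along the slow marker axis. In Casq2 signal, SOD1-G93A triceps replicate 3 reaches the lower gastrocnemius values.

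Atp2a1, Pvalb and Casq1 followed one another over the arrays. Atp2a1, the fast-type SERCA pump, read 14.25, 14.36, 14.59 and 14.64 in SOD1-G93A gastrocnemius and 14.10, 14.00, 14.50 and 14.35 in NTg gastrocnemius. It read 13.94, 12.96, 14.57 and 14.47 in SOD1-G93A triceps and 13.08, 13.06, 14.48 and 14.26 in NTg triceps. The muscles overlapped, and the low triceps values were those of the 3 arrays with low Ckm. Pvalb, the cytosolic buffer of fast fibres, read 12.64 in SOD1-G93A triceps replicate 2, and 12.76 and 12.999 in NTg triceps replicates 1 and 2. On the other triceps arrays Pvalb read 13.75 to 14.48, and on the gastrocnemius arrays 14.16 to 14.62 in SOD1-G93A mice and 13.90 to 14.39 in NTg mice. Casq1, the main calsequestrin of fast fibres, read 11.97, 12.11 and 12.28 on the same 3 arrays and 12.96 or more on the others. Over the 16 arrays Casq1 correlated at 0.958 with the mean level of general muscle fibre markers (such as Ckm) and at 0.956 with that of the fast markers.

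The differences of Atp2a1, Pvalb and Casq1 rested on those 3 arrays. Averaged over the genotypes, gastrocnemius minus triceps was 0.50 for Atp2a1 (SE 0.24, limma adjusted p 0.236), 0.53 for Pvalb (SE 0.28, adjusted p 0.257) and 0.36 for Casq1 (SE 0.23, adjusted p 0.361). Without the 3 arrays the values were -0.00074 for Atp2a1, -0.030 for Pvalb and -0.11 for Casq1, with the gastrocnemius arrays of the same 3 mice kept. Within mice, Atp2a1 was higher in gastrocnemius in 8 of 8, Pvalb in 7 of 8 and Casq1 in 5 of 8. In the 5 mice without such an array the Atp2a1 difference was 0.31, 0.022 and 0.18 in SOD1-G93A mice 1, 3 and 4, and 0.020 and 0.082 in NTg mice 3 and 4. Within replicate numbers 1 and 2 the difference was 0.92 for Atp2a1, 0.997 for Pvalb and 0.72 for Casq1, and within numbers 3 and 4 it was 0.076 for Atp2a1, 0.062 for Pvalb and 0.0044 for Casq1. With a term for that split of the numbers, Atp2a1 (limma adjusted p 0.0459) and Pvalb (0.0488) passed the threshold. In a model that gives the same distribution to all arrays (quantile normalization) Atp2a1 was -0.035 (adjusted p 0.644).

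Atp2a1 was nearest to Acta1 (skeletal actin, Pearson r 0.996), Pvalb (0.994) and Ckm (0.994) over the 16 arrays. Pvalb was nearest to Ckm (0.996), Tpm1 (fast tropomyosin, 0.996) and Tnnt3 (fast troponin T, 0.995), and Casq1 to Pvalb (0.980), Atp2a1 (0.980) and Tpm1 (0.980). Without the 3 arrays with low Ckm these values were 0.964 to 0.980 for Atp2a1, 0.971 to 0.977 for Pvalb and 0.865 to 0.886 for Casq1. The 10 fast fibre markers, all in the table, had a median difference of 0.52 between the muscles. Of the 10, 1 was called, against 3.69% of all tested probe sets. Myh2 had the largest difference of the 10. It averaged 13.40 in SOD1-G93A gastrocnemius, 13.60 in NTg gastrocnemius, 12.04 in SOD1-G93A triceps and 11.53 in NTg triceps. The summed level of the 10 markers ranged over 17.30 to 17.67 in SOD1-G93A gastrocnemius and 17.11 to 17.56 in NTg gastrocnemius. In triceps the summed level ranged over 15.96 to 17.48 in SOD1-G93A mice and 16.10 to 17.39 in NTg mice. Its part in the Atp2a1, Pvalb and Casq1 values was not tested.

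Ryr1, the calcium release channel of skeletal muscle, had group means of 12.16 ± 0.13 in SOD1-G93A gastrocnemius, 12.15 ± 0.13 in NTg gastrocnemius, 12.22 ± 0.15 in SOD1-G93A triceps and 12.27 ± 0.18 in NTg triceps (SD, n = 4 each). Gastrocnemius minus triceps was -0.087 (SE 0.089, limma adjusted p 0.586, 95% interval -0.28 to 0.10). Under quantile normalization it was -0.36 (adjusted p 0.013), lower in gastrocnemius. Cacna2d1, the alpha2delta subunit of voltage-gated calcium channels, gave -0.051 (SE 0.28, adjusted p 0.932), and S100a1, a calcium binding protein that acts on the release channel, gave -0.069 (SE 0.095, adjusted p 0.694) with probe set 1419814_s_at and 0.17 (SE 0.15, adjusted p 0.519) with 1417421_at. By the maker's naming, probe sets ending in _s_at, as for Casq2 and this S100a1 set, can match transcripts of more than 1 gene.

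**Figure D3:**
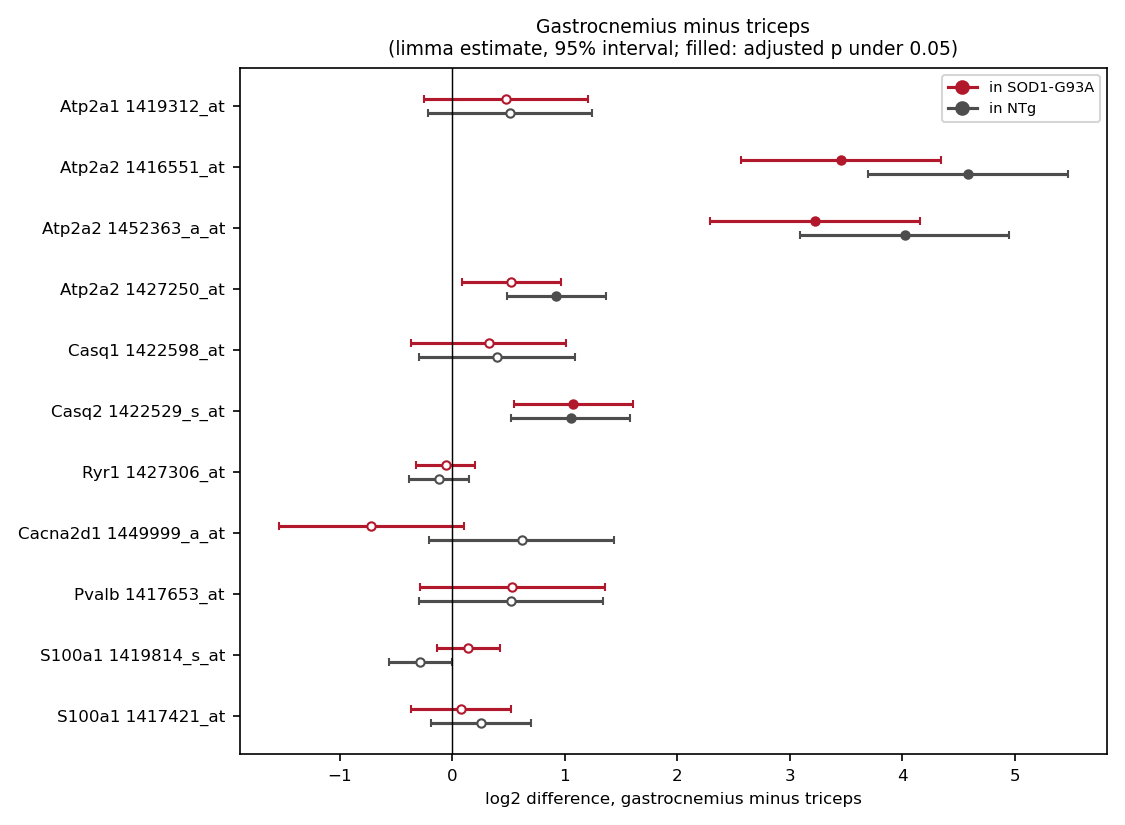
Gastrocnemius minus triceps in log2 units for the 11 tested probe sets, in SOD1-G93A mice (red) and in NTg mice (grey), as the limma estimate with its 95% interval. Filled points passed an adjusted p of 0.05: Atp2a2 and Casq2 lie to the right of 0 in both genotypes, and Atp2a2 1427250_at is filled in NTg mice only.

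**Figure D4:**
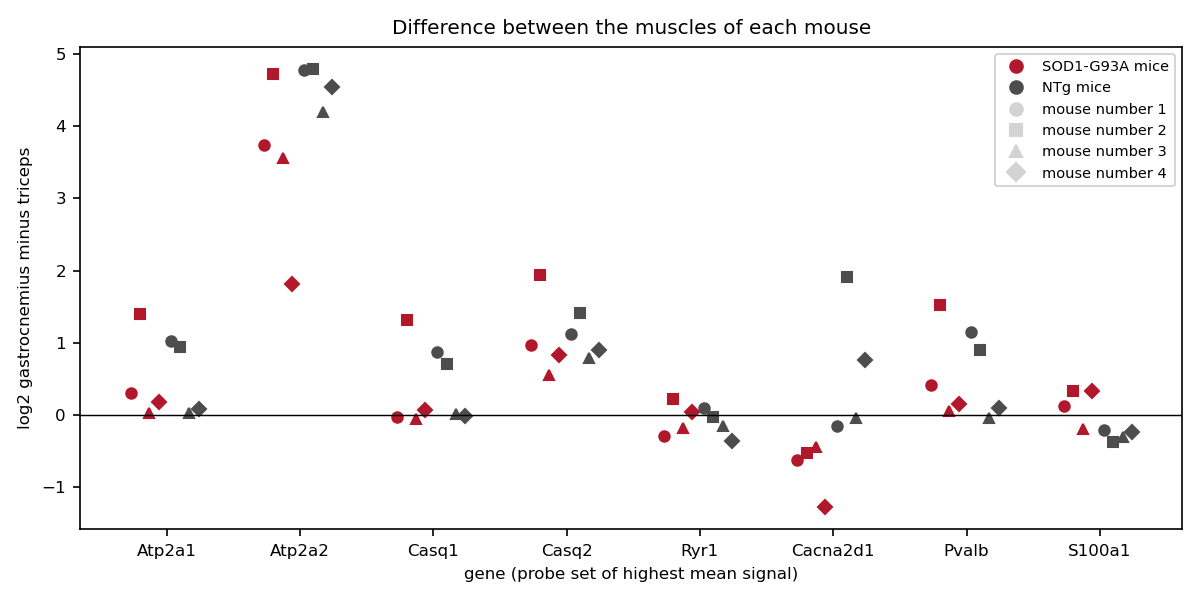
Gastrocnemius minus triceps in log2 units within each of the 8 mice for the brightest probe set of each gene, SOD1-G93A mice in red and NTg mice in grey, with shapes for the mouse number. Atp2a2 is above 0 in all mice, from 1.81 to 4.80, and Casq2 likewise, from 0.56 to 1.94.

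The second comparison set SOD1-G93A against NTg, in each muscle. No probe set of the calcium handling genes was called, and none of all 4637 (0%) was called in gastrocnemius, in triceps, averaged over both muscles or for the difference between the muscles. At an unadjusted p under 0.05, limma had 103 probe sets (2.22%) in gastrocnemius, 118 (2.54%) in triceps, 85 (1.83%) averaged over both muscles and 86 (1.85%) for the difference of the genotype effect. Among the 8 genes' brightest probe sets, 0 reached that level in gastrocnemius and 2 in triceps, Cacna2d1 and S100a1. The dim Atp2a2 probe set 1427251_at, fitted with no filter, also did so in gastrocnemius, at -1.68 (SE 0.74, unadjusted p 0.0347, limma adjusted p 0.999), and gave 0.32 in triceps (SE 0.74). It read 4.94, 5.99, 1.14 and 4.78 in SOD1-G93A gastrocnemius and 6.42, 6.26, 6.23 and 4.66 in NTg gastrocnemius, all under the filter level. The 95% intervals in gastrocnemius allow a fold of 0.706 to 1.94 for Atp2a1, 0.652 to 1.70 for Casq1 and 0.671 to 2.09 for Pvalb and hold changes of that size.

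Cacna2d1 (1449999_a_at) read 7.67, 7.93, 8.29 and 8.31 in SOD1-G93A triceps and 7.14, 5.45, 7.75 and 7.49 in NTg triceps. The groups overlapped, and NTg replicate 2, 1 of the 3 arrays with low Ckm, was far below the rest. The difference in triceps was 1.09 (SE 0.39, unadjusted p 0.0121, limma adjusted p 0.994), and 0.59 without NTg triceps replicate 2 and 0.47 without the 3 arrays. In gastrocnemius it was -0.25 (SE 0.39, adjusted p 0.999), with 7.04, 7.41, 7.85 and 7.03 in SOD1-G93A and 6.99, 7.36, 7.70 and 8.25 in NTg. The difference of these effects was -1.34 (SE 0.55, unadjusted p 0.0264, adjusted p 0.999). Within mice, gastrocnemius minus triceps of Cacna2d1 was -0.63, -0.53, -0.44 and -1.28 in SOD1-G93A mice 1 to 4. It was -0.16, 1.91, -0.047 and 0.76 in NTg mice 1 to 4. This muscle difference was not called in SOD1-G93A mice (-0.72, SE 0.39, limma adjusted p 0.495) or in NTg mice (0.62, SE 0.39, adjusted p 0.489). For SOD1-G93A minus NTg, the dim probe set 1425861_x_at, fitted with no filter, gave 0.30 in triceps and 0.67 in gastrocnemius.

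S100a1 (1419814_s_at) read 8.67, 8.70, 8.81 and 8.81 in SOD1-G93A triceps and 8.86, 9.32, 9.12 and 9.17 in NTg triceps. The groups did not overlap, with SOD1-G93A lower, a pattern found for 0.496% of all tested probe sets. The difference was -0.37 (SE 0.13, unadjusted p 0.0136, limma adjusted p 0.994), and the other probe set, 1417421_at, gave -0.019 (SE 0.21). In gastrocnemius the first probe set gave 0.059 (SE 0.13), and the difference of the effects was 0.43 (SE 0.19, unadjusted p 0.0376, adjusted p 0.999).

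Atp2a2 (1416551_at) differed by 0.84 between SOD1-G93A and NTg in triceps (SE 0.42, unadjusted p 0.0609, limma adjusted p 0.994) and by -0.28 in gastrocnemius (SE 0.42). The triceps value was 0.27 without SOD1-G93A triceps replicate 4, which also had the highest slow fibre markers of the triceps arrays. Leaving out SOD1-G93A triceps replicate 2, 1 of the 3 arrays with low Ckm, gave 1.19. Within numbers 1 and 2 the triceps value was -0.050 and within numbers 3 and 4 it was 1.74. Casq2 gave 0.13 in triceps and 0.15 in gastrocnemius (SE 0.25 each), with groups that overlapped. The denervation markers could not be set beside these values, since 2 of 9 were in the table and 0 were above the filter.

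**Figure D5:**
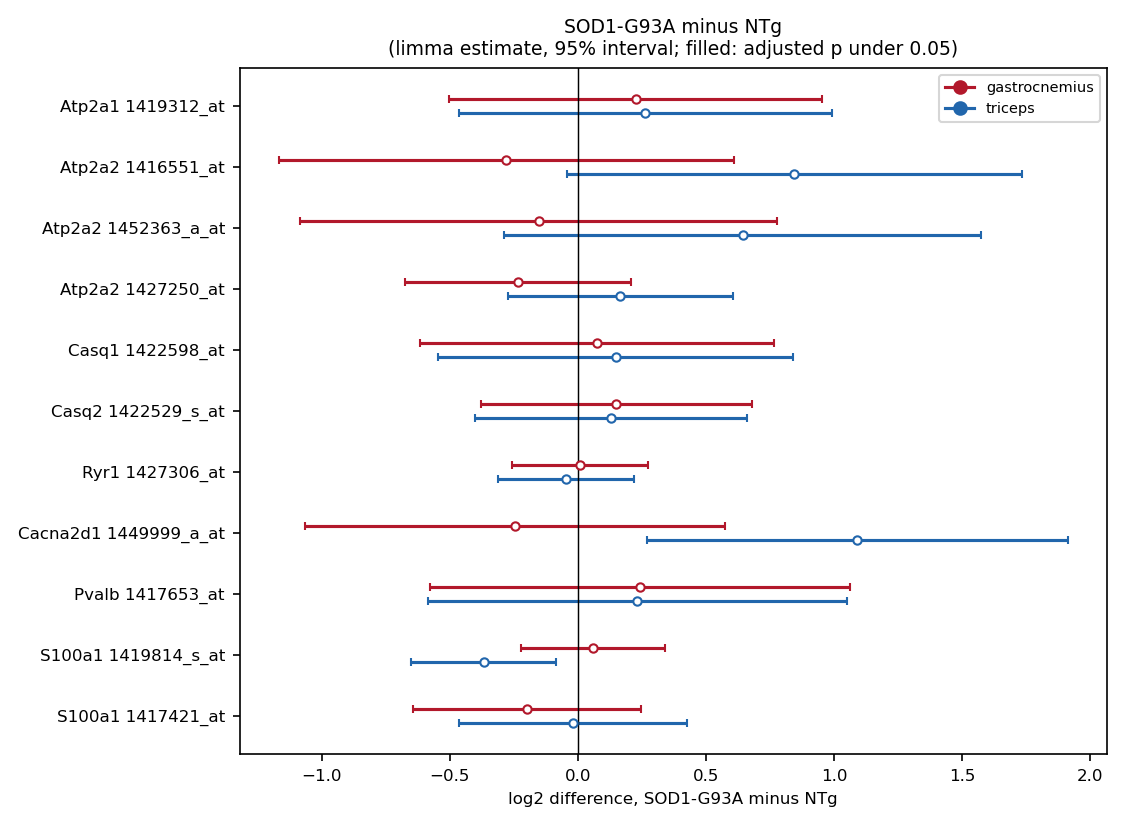
SOD1-G93A minus NTg in log2 units for the 11 tested probe sets, in gastrocnemius (red) and in triceps (blue), as the limma estimate with its 95% interval. No point is filled, since no adjusted p was under 0.05, and the 95% intervals of Cacna2d1 (above 0) and S100a1 1419814_s_at (below 0) in triceps leave out 0.

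The wider calcium pathway was described through 69 genes by role, of which 37 were in the table and 34 had a tested probe set, each taken by its brightest. Apart from the 8 genes above, 26 were tested and 0 were called in any comparison, at limma adjusted p values of 0.0683 or more between the muscles; at an unadjusted p under 0.05, 6 of the 26 reached the level averaged over genotypes, against 22.3% of all tested probe sets. Their median difference of gastrocnemius minus triceps was 0.065, against -0.0042 over all tested probe sets. Smdt1, a subunit of the mitochondrial calcium uniporter, had the smallest p (0.34, SE 0.10, adjusted p 0.0683). Rcan1, an inhibitor of calcineurin, followed (0.50, SE 0.17, adjusted p 0.101), and Jph2, which joins the surface membrane to the reticulum, was next (0.65, SE 0.24, adjusted p 0.137). Without the 3 arrays with low Ckm these were 0.17 for Smdt1, 0.58 for Rcan1 and 0.47 for Jph2. The other Rcan1 probe set, which was dim, gave 1.59 with no filter and all arrays.

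Between genotypes the 26 other genes had a median difference of 0.096 in gastrocnemius, against -0.012 over all tested probe sets, and 0.048 in triceps, against 0.021. The smallest p values in gastrocnemius were those of Camk2g, a calmodulin kinase subunit (0.41, SE 0.22, limma adjusted p 0.999), Tmem38a, a cation channel of the reticulum (0.19, SE 0.11), and Smdt1 (0.17, SE 0.14). In triceps they were those of Ppp3cb, a calcineurin subunit (0.89, SE 0.51, adjusted p 0.994), Capn3, a muscle calpain (0.30, SE 0.17), and Cacng1, a subunit of the voltage sensor (0.26, SE 0.17). The Ppp3cb value rested on NTg triceps replicate 2, which read 4.83 with the other NTg triceps arrays at 7.66 to 8.38, and was 0.082 without that array. Its other, dim probe set gave -0.59 with no filter. In gastrocnemius the other probe set of Camk2g gave -0.0051 and that of Tmem38a gave 0.017. Without the 3 arrays with low Ckm the triceps values were 0.15 for Ppp3cb, 0.037 for Capn3 and 0.012 for Cacng1. By role, members included, 0 of 9 triad and junction genes and 0 of 7 calcium-dependent enzymes were called in any comparison. For voltage sensor genes it was 0 of 4 and for release channel genes 0 of 3. Averaged over genotypes, 1 of 2 pump genes (Atp2a2) and 1 of 5 reticulum lumen genes (Casq2) were called between the muscles. Over all tested probe sets the share called was 3.69% there and 0% between genotypes. With shares this low, a count of 0 in a role of few genes is a description.

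Sln, which makes sarcolipin, a small inhibitor of SERCA pumps, was in the table but below the filter, and was chosen here after its values were seen. It read 6.10, 7.92, 8.49 and 7.24 in SOD1-G93A gastrocnemius and 7.40, 7.75, 6.84 and 7.30 in NTg gastrocnemius. In triceps it read 2.32, 4.28, 3.34 and 4.69 in SOD1-G93A and 4.24, 4.97, 3.27 and 1.02 in NTg. All gastrocnemius arrays were above all triceps arrays, where the signals were dim. Such a separation of 8 against 8 arrays was found in 1.25% of the tested probe sets, which leave out Sln, so it is a description. With no filter the difference was 3.86 (SE 0.49, limma adjusted p 9.28e-05), and 169 of 7729 probe sets (2.19%) were called. It was 3.78 in SOD1-G93A mice (adjusted p 0.0132) and 3.95 in NTg mice (adjusted p 0.0054).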

How the data were processed

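Total RNA of both muscles had been labelled and hybridised to Affymetrix arrays, per the labels' protocols. The deposited table holds 1 log2 signal per probe set and array, made by the authors with MAS5 per the submitters' processing notes (no version). No source used here gives the scaling or the rule that selected the 7729 probe sets, and base 2 was read from the values (-0.773 to 14.8). The number of arrays, 4 per group, limits the precision.

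The values were used as deposited. A group mean model was fitted with limma 3.58.1 in R 4.3.3 (lmFit, eBayes with an intensity trend) on the 4637 probe sets above the 40th percentile, with the mouse as a random block for the genotype comparison averaged over both muscles (consensus correlation 0.185). The other comparisons had no block. Samples with the same mouse correlated at 0.14 to 0.39 in deviations from the group means, with 7 of 8 gastrocnemius arrays nearest to their own mouse, and the series design text takes both muscles from 4 mice of each genotype. The scripts were tested on simulated data. The genes, the lists, the 3 arrays left out and the split of the replicate numbers were chosen with earlier results of these data known. Named genes are all probe sets of the 8 genes, the 3 of smallest p on the calcium list in a comparison, and the 3 most alike in Pearson r. Gene symbols came from the platform annotation, and the RefSeq entries of all 8 genes were found by Entrez identifier. Alternatives were the filter, quantile normalization, median centring, no trend, other probe sets, blocks and leaving out arrays. The fits of the wider calcium list and the correlations without the 3 arrays were added after the data were seen.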

Additional observations from a re-analysis of the deposited data

Results flagged for a closer look

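A replicate that stood far from the other 3 of its group by Dixon's ratio was found in 4 of the 52 groups of probe set values (7.69%), where chance gives about 1 in 20. The dim Atp2a2 probe set 1427251_at had NTg gastrocnemius replicate 4 at 4.66, with the others at 6.23 to 6.42, and SOD1-G93A triceps replicate 2 at 4.61, with the others at 5.32 to 5.38. Ryr1 was low in SOD1-G93A gastrocnemius replicate 1, at 11.97, with the others at 12.20 to 12.24. The Atp2a2 probe set 1452363_a_at was high in NTg triceps replicate 3, at 7.11, with the others at 5.55 to 5.80. The causes were not tested.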

How the results depend on the processing

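Every alternative gave 0 called probe sets, among these genes and among all, for each genotype comparison. Averaged over the genotypes, gastrocnemius against triceps gave 3 to 6 called probe sets of these genes (4 as reported) and 4 in each fit that left out 1 array, and Atp2a2 (1416551_at) and Casq2 stayed called in all of these fits. The count within NTg mice was 2 in place of 4 with no filter and without the 3 triceps arrays, and 2 to 4 when leaving out 1 array. Casq2 lost its call when leaving out 1 array in 14 of 16 fits within SOD1-G93A mice (adjusted p 0.0056 to 0.168) and in 13 of 16 within NTg mice (0.0096 to 0.168), and in both genotypes with no filter, quantile normalization, median centring or no trend. The cause was not tested. Over all probe sets, 171 were called between the muscles, 331 with the mouse as a random replicate block, 408 with the number as a fixed block, 436 with numbers 1 and 2 set against 3 and 4, 103 without the 3 arrays and 99 to 272 when leaving out 1 array. Within NTg mice the mouse block gave 83 in place of 57, number 91 and the split 90, and leaving out 1 array 37 to 66. Within SOD1-G93A mice leaving out 1 array gave 23 to 58 in place of 48. The mouse block changed no call of these genes. The same number across genotypes correlated at 0.00065 to 0.373, with 5 of 8 pairs over 0.1. That range overlaps the 0.14 to 0.39 of arrays of the same mouse. In the reported fits the number was not used to pair the genotypes, and what it shares across them was not tested.

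None of the differences that changed sign was called in the reported fits. Between the muscles, Atp2a1 and Pvalb passed the threshold with the term for the split of the numbers. Without the 3 triceps arrays, SOD1-G93A minus NTg in triceps was -0.046 for Atp2a1, -0.14 for Casq1 and -0.090 for Pvalb, and averaged over both muscles -0.0019 for Casq1. The difference of the genotype effect became 0.27 for Atp2a1, 0.21 for Casq1 and -0.045 for Casq2. Gastrocnemius minus triceps became -0.00074 for Atp2a1, -0.11 for Casq1 and -0.030 for Pvalb, within SOD1-G93A mice -0.0077 for Casq1, and within NTg mice -0.14 for Atp2a1, -0.22 for Casq1, -0.042 for Cacna2d1 and -0.20 for Pvalb. Quantile normalization gave SOD1-G93A minus NTg in gastrocnemius of -0.017 for Casq1 and -0.0077 for Ryr1, in triceps -0.0091 for Pvalb and averaged -0.0033 for Casq1. It gave gastrocnemius minus triceps for Atp2a1 of -0.035 averaged and within each genotype. Median centring gave 0.0060 for the difference of the genotype effect of Atp2a1 and 0.0025 for Ryr1 between the muscles of SOD1-G93A mice.

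Other probe sets also changed the sign. Cacna2d1 1425861_x_at gave SOD1-G93A minus NTg of 0.67 in gastrocnemius, 0.37 for the difference of the effect, and 0.53 averaged and 0.72 within SOD1-G93A mice between the muscles. S100a1 1417421_at gave -0.20 for the genotypes in gastrocnemius, -0.18 for the difference of the effect, and 0.17 averaged and 0.26 within NTg mice between the muscles. Atp2a2 gave -0.034 (1427250_at) and -0.68 (1427251_at) for the genotypes averaged, and -0.96 (1427251_at) between the muscles of SOD1-G93A mice.

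Leaving out 1 array gave, for SOD1-G93A minus NTg in gastrocnemius, -0.0011 to 0.18 for Casq1, -0.039 to 0.074 for Ryr1 and -0.023 to 0.15 for S100a1. In triceps it gave -0.087 to 0.48 for Casq1, -0.13 to 0.39 for Casq2, -0.10 to 0.020 for Ryr1 and -0.047 to 0.63 for Pvalb, and averaged -0.0035 to 0.46 for Atp2a2 and -0.048 to 0.017 for Ryr1. The difference of the genotype effect ranged over -0.38 to 0.18 for Atp2a1, -0.40 to 0.16 for Casq1, -0.24 to 0.28 for Casq2, -0.011 to 0.12 for Ryr1 and -0.39 to 0.29 for Pvalb. Between the muscles, Cacna2d1 ranged over -0.30 to 0.081, and within SOD1-G93A mice Casq1 over -0.0077 to 0.51 and Ryr1 over -0.13 to 0.0050. Dim signals, as of Atp2a2 in triceps, limit the size of a fold.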

Other observations

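Among the 2 Schwann cell markers in the table, Mbp, a myelin protein, averaged 8.50 in SOD1-G93A gastrocnemius, 8.93 in NTg gastrocnemius, 6.59 in SOD1-G93A triceps and 6.16 in NTg triceps. Pmp22, a myelin protein of peripheral nerve, averaged 9.35 in SOD1-G93A gastrocnemius, 9.46 in NTg gastrocnemius, 8.25 in SOD1-G93A triceps and 8.05 in NTg triceps. Camk2d, a calmodulin kinase subunit, was below the filter and was chosen after its values were seen. Fitted with no filter, its probe set 1427763_a_at differed by 0.96 between SOD1-G93A and NTg in triceps (SE 0.35, unadjusted p 0.0124, limma adjusted p 0.9999). It was not called, and 0 of all 7729 probe sets (0%) were called there. In gastrocnemius the same probe set gave -0.45 (SE 0.35). The other Camk2d probe set gave -0.27 in triceps.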
